A study of Bos grunniens with 12 samples.

Results

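The genes described are TNP1, HMGB4, ODF1 and GAPDHS, 4 genes of the late spermatid, in the testis of the yak (Bos grunniens). They were taken by their symbols from the gene table of the input libraries, where the 4 symbols stand on 6 of the 20953 identifiers. The study collected testes from healthy yaks at 1 location, 3 of them 1.5 years old and not yet sexually mature (the Y group of the article) and 3 of them 5 years old and mature (the M group). The testes of the Y group were removed by surgical castration and those of the M group after euthanasia, so age and the way of collection cannot be told apart. Each testis gave an input library, the mRNA fragments before immunoprecipitation, and a library of fragments bound by an antibody against N6-methyladenosine (m6A), which makes 12 libraries in all. Expression values by gene exist for the 6 input libraries, and these are used here with the age that their titles give.

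After meiosis the round spermatid elongates, packs its nucleus and builds a tail, and transcription stops as the nucleus is packed. Many mRNAs of this phase are made in the round spermatid, stored, and translated days later. TNP1 encodes transition protein 1, which replaces histones on the DNA before the protamines take over. HMGB4 encodes a testis protein of the high mobility group box family that binds chromatin. ODF1 encodes a main protein of the outer dense fibres, the stiff rods along the sperm tail, and GAPDHS encodes the sperm form of glyceraldehyde-3-phosphate dehydrogenase, an enzyme of glycolysis fixed to the fibrous sheath of the tail.

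The labels did not match what these genes are known for. The libraries labelled 1.5 years, from animals described as not yet mature, held TNP1 among the 3 genes with the highest values. All 4 genes were higher in each of them than in any library labelled 5 years. TNP1 was abundant under both labels, at rank 3 in libraries 2 and 3 of the 5-year group and rank 33 in library 1. The developmental stage field of the deposited record also names the opposite stage for every sample, whereas the titles, the growth protocol and the article give the same ages. No sample was moved, groups are called the libraries labelled 1.5 and 5 years throughout, and whether the labels are crossed was not tested. The study also stained sections of these testes, which were not analysed here. Every direction below rests on these labels.

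TNP1, HMGB4, ODF1 and GAPDHS were read from the identifiers ENSBGRG00000002189, ENSBGRG00000009335, ENSBGRG00000008140 and ENSBGRG00000025264. The terms deposited with them include spermatid nucleus elongation for TNP1, bending of DNA for HMGB4, outer dense fiber for ODF1 and the glycolytic process for GAPDHS. A second identifier stands under the symbol TNP1 and another under HMGB4; both carry terms of an RNA-directed DNA polymerase and were at 0.112 FPKM or less in each library. They add nothing to the values given here. FPKM count the fragments of a gene per kilobase of its length and relative to all mapped fragments, so that levels can be compared between genes.

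The FPKM of a library summed to between 116187 and 139921, and between 16293 and 16390 genes were above 0. How many fragments a value rests on is unknown. Across the 12437 genes tested, with genes that are not independent replicates, log2 values of the libraries labelled 1.5 years correlated at 0.952 to 0.958 with each other. Library 1 of the 5-year group correlated at 0.817 to 0.837 with them, against 0.912 to 0.917 for library 3 and 0.942 to 0.947 for library 2. Within the 5-year group, library 3 correlated at 0.935 with library 2. Library 1 correlated at 0.923 with library 3 and 0.868 with library 2, and stood apart in all 4 genes. Values without it are given for the 4 genes and for part of the other results.

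TNP1 was the most abundant of the 4 transcripts. Its level was 882.6, 851.8 and 879.3 FPKM in the libraries labelled 1.5 years and 201.2, 641.2 and 549.7 FPKM in those labelled 5 years. The groups did not overlap, the younger libraries lay within 1.04-fold of each other, and library 1 of the 5-year group was lowest by far. The means were 871 ± 16.9 and 464 ± 232 FPKM (SD, n = 3 each). On the log2 scale TNP1 was lower at 5 years, with a difference of -1.07 (standard error 0.44) and an adjusted p of 0.188 from limma.

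HMGB4 had the same order of the older libraries as TNP1, at a lower level. It was at 132, 143 and 122 FPKM in the libraries labelled 1.5 years and at 29.6, 96.2 and 85.4 FPKM in those labelled 5 years. Again the groups did not overlap and library 1 of the older group was the lowest. The means were 133 ± 10.6 and 70.4 ± 35.7 FPKM (SD, n = 3 each), and the log2 difference was -1.08 (standard error 0.43, adjusted p = 0.183 from limma).

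GAPDHS had nearly the level of HMGB4. Its level was 113, 107 and 112 FPKM in the libraries labelled 1.5 years and 23.3, 69.3 and 64.4 FPKM in those labelled 5 years. The gap between the groups was the widest of the 4 genes, since the lowest younger library was 1.54 times the highest older one. The means were 111 ± 3.46 and 52.3 ± 25.3 FPKM (SD, n = 3 each), and the log2 difference was -1.23 (standard error 0.40, adjusted p = 0.158 from limma).

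ODF1 was the least abundant transcript and had the largest difference. It was at 66.4, 51.9 and 61.5 FPKM in the libraries labelled 1.5 years and at 8.40, 42.1 and 31.9 FPKM in those labelled 5 years. The groups lay closest here, with the lowest younger library 1.23 times the highest older one, and library 1 of the older group lay far below the other two. The means were 59.9 ± 7.37 and 27.5 ± 17.3 FPKM (SD, n = 3 each), and the log2 difference was -1.40 (standard error 0.55, adjusted p = 0.182 from limma).

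**Figure D1:**
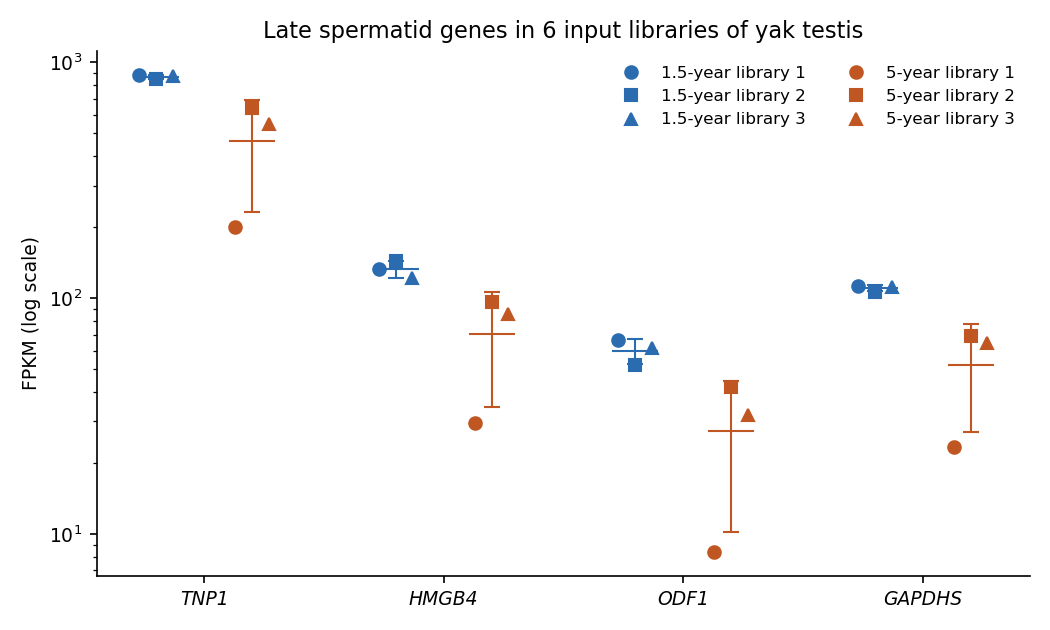
FPKM (log axis) of TNP1, HMGB4, ODF1 and GAPDHS in each input library, blue for libraries labelled 1.5 years and orange for those labelled 5 years; horizontal lines are means and bars the SD of 3 libraries. All blue points of a gene lie above its orange points, and 5-year library 1 (orange circle) is the lowest point of each gene.

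The order TNP1, HMGB4, GAPDHS, ODF1 held in all 6 libraries. In the younger libraries the ranges of neighbouring genes did not overlap, whereas in the older ones those of HMGB4, GAPDHS and ODF1 did. With an adjusted p under 0.05, 0 of the 4 genes were called, where 4 of 12437 genes (0.0322%) were called over the whole table. At an unadjusted p under 0.05 in limma all 4 genes were lower at 5 years, with values of 0.0424 for TNP1, 0.0388 for HMGB4, 0.0378 for ODF1 and 0.0177 for GAPDHS, against 10.9% of all genes tested. By a fold rule, which asks for an unadjusted p under 0.05 and a log2 difference below -1, all 4 were lower, against 5.25% of all genes; 4.01% of all genes passed the same rule as higher. Each 5-year library lay below each younger one in all 4 genes and in 13.9% of all genes, and above in 0 of the 4 and 19.8% of all genes. The exact two-sided permutation test gave p = 0.1 for each gene, the smallest p that 3 against 3 libraries allow. In bulk tissue, fewer spermatids and less of these mRNAs per spermatid cannot be told apart.

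Library 1 of the 5-year group set the size of these differences. It lay below the geometric mean of the younger libraries by 4.33-fold for TNP1, 4.45-fold for HMGB4, 4.73-fold for GAPDHS and 7.02-fold for ODF1. Library 2 lay 1.36 to 1.60-fold below this mean and library 3 lay 1.55 to 1.87-fold below it. Without library 1 the log2 differences were -0.55, -0.55, -0.73 and -0.70 for TNP1, HMGB4, GAPDHS and ODF1, so that 0 of the 4 genes passed the fold rule, against 1.31% of all genes. The unadjusted p was then smaller, between 0.00023 for GAPDHS and 0.00521 for ODF1, and all 4 genes were below 0.05, against 8.51% of all genes. The adjusted p from limma was 0.10 for GAPDHS and at most 0.144 for the others, so that 0 of the 4 genes were called, against 0.0482% of all genes. Without library 2 of the 5-year group, GAPDHS had an adjusted p of 0.0485, against 19.3% of all genes called. When quantile normalization was applied to the libraries, 0 of the 4 genes passed the fold rule and 3 of the 4 kept ages that did not overlap. TNP1 then had a log2 difference of -0.80 with an adjusted p of 0.313 from limma. Without any one of the libraries labelled 1.5 years, the fold rule called GAPDHS alone. The shares of all genes under quantile normalization and without a library labelled 1.5 years were not computed.

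Relative to all other transcripts the 4 genes were also lower in the older libraries. Together they held 0.854%, 0.864% and 0.856% of the FPKM in the libraries labelled 1.5 years and 0.226%, 0.648% and 0.567% in those labelled 5 years. TNP1 ranked 2, 3 and 1 among all genes in the younger libraries and 33, 3 and 3 in the older ones, so that its rank overlapped between the ages although its level did not. HMGB4 ranked 90, 71 and 100 in the younger libraries and 623, 132 and 149 in the older ones. GAPDHS held its place within 10 ranks in the younger libraries, at 117, 126 and 119, and ranked 888, 236 and 240 in the older ones. ODF1 ranked 305, 411 and 342 in the younger libraries and 3505, 509 and 737 in the older ones, the widest spread of the 4 genes. For the rank as a percent of the genes above 0, the exact permutation test gave p = 0.2 for TNP1 (adjusted over the 4 genes 0.2) and p = 0.1 for each of the others (adjusted 0.133).

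**Figure D2:**
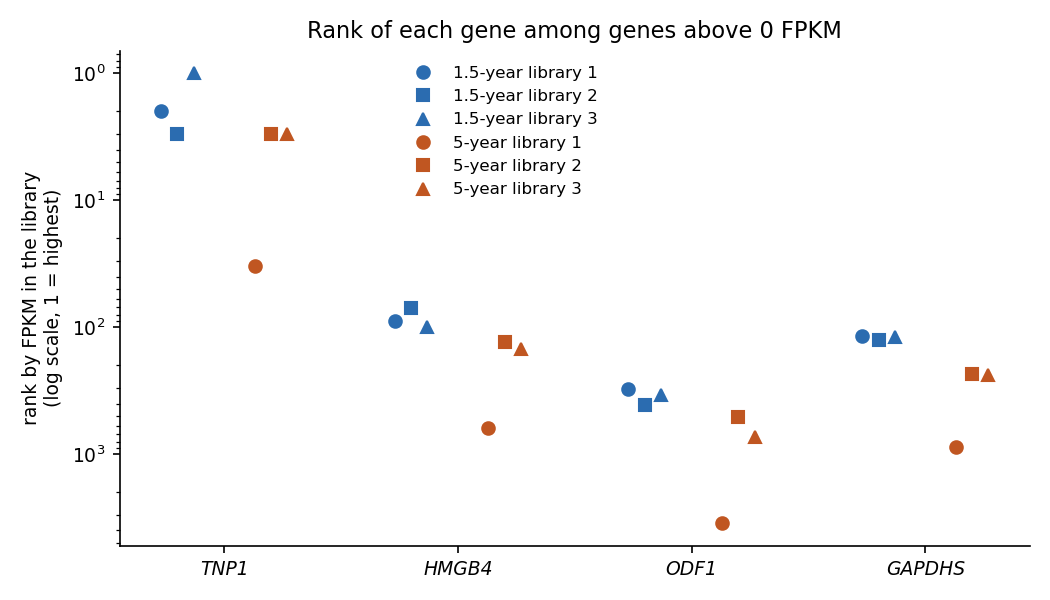
Rank of each gene by FPKM among the genes above 0 in its library (log axis, 1 is the highest), with blue for libraries labelled 1.5 years and orange for those labelled 5 years. TNP1 stays at rank 3 or higher in 5 libraries and is at 33 in 5-year library 1, where ODF1 is at 3505.

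Ratios between genes of 1 library do not depend on how that library was scaled, and they varied less than the levels. TNP1 was 6.67, 5.95 and 7.20 times HMGB4 in the libraries labelled 1.5 years and 6.79, 6.67 and 6.44 times in those labelled 5 years. The ratio of these chromatin genes thus lay within 1.21-fold over all 6 libraries, while TNP1 itself varied 3.19-fold among the older libraries alone. Its log2 difference between the ages was 0.01 (log2 SD 0.14 and 0.04, n = 3 each, exact permutation p = 0.9), and its sign turned without library 2 of the younger group (-0.065) and without library 1 of the older one (-0.0078).

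TNP1 was 7.80, 7.99 and 7.86 times GAPDHS in the younger libraries and 8.63, 9.26 and 8.53 times in the older ones. This was the only one of the 6 pairs whose ages did not overlap (exact permutation p = 0.1, adjusted over the 6 pairs 0.45), and the older libraries were 1.11-fold higher. HMGB4 was 1.17, 1.34 and 1.09 times GAPDHS in the younger libraries and 1.27, 1.39 and 1.33 times in the older ones, which overlapped (p = 0.3, exact permutation test).

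The ratios with ODF1 were the ones that set 5-year library 1 apart. TNP1 was 13.3, 16.4 and 14.3 times ODF1 in the younger libraries and 23.9, 15.2 and 17.2 times in the older ones (exact permutation p = 0.2, log2 difference 0.33, and 0.15 without 5-year library 1). HMGB4 was 1.99, 2.76 and 1.99 times ODF1 in the younger libraries and 3.53, 2.29 and 2.68 times in the older ones (exact permutation p = 0.3, log2 difference 0.32, and 0.15 without that library). GAPDHS was 1.71, 2.06 and 1.82 times ODF1 in the younger libraries and 2.77, 1.65 and 2.02 times in the older ones (exact permutation p = 0.7, log2 difference 0.17, and -0.026 without that library). In each of these 3 ratios library 1 of the older group was the highest of the 6 libraries, and the other 2 older libraries lay within or near the younger range.

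**Figure D3:**
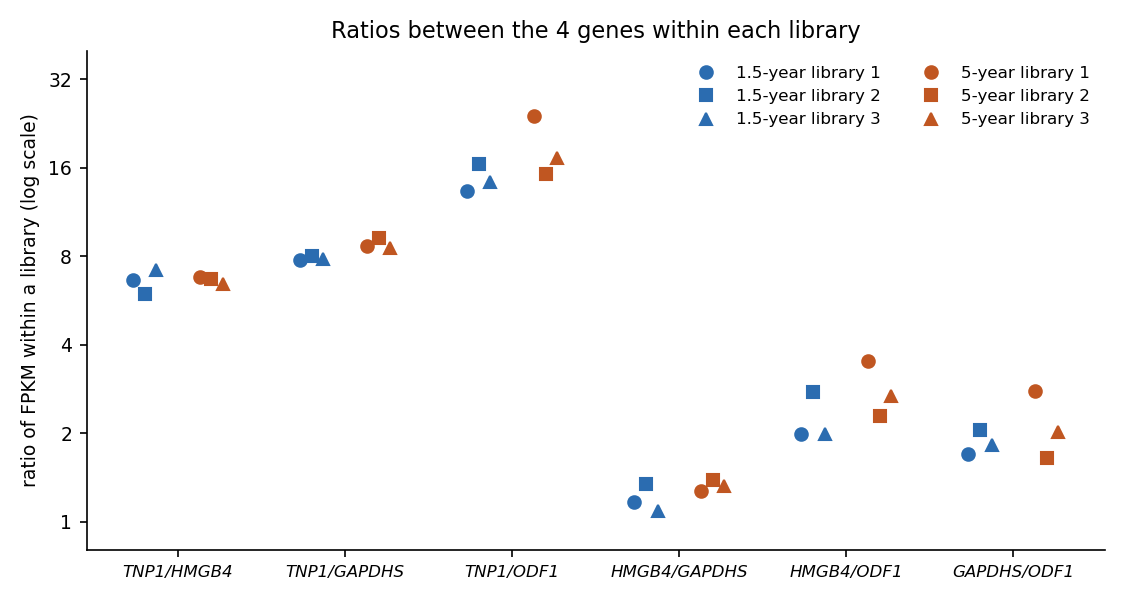
Ratio of the FPKM of 2 genes within each library (log axis) for the 6 pairs, blue for libraries labelled 1.5 years and orange for those labelled 5 years. TNP1/HMGB4 lies between 5.95 and 7.20 in all 6 libraries, and the 3 ratios with ODF1 are highest in 5-year library 1.

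Of 12 genes listed for the condensing nucleus, 4 have a gene under their symbol. Beside TNP1 and HMGB4 these are SPEM1 and SPEM2, genes of spermatid maturation, and no other gene of that list was in the table. Here and in all lists below, 0 genes had an adjusted p under 0.05 in limma, so counts are given by the fold rule or the unadjusted p. SPEM1 was at 126, 107 and 107 FPKM in the libraries labelled 1.5 years and at 19.1, 61.9 and 65.6 FPKM in those labelled 5 years, a log2 difference of -1.40 (standard error 0.46, adjusted p = 0.157 from limma), and -0.83 without 5-year library 1. SPEM2 had a log2 difference of -1.44 (standard error 0.49, adjusted p = 0.163 from limma), and -0.82 without it. The median log2 difference of the 4 genes was -1.24, and -0.68 without that library, against 0.04 over all genes tested. All 4 passed the fold rule as lower, against 5.25% of all genes. Without 5-year library 1, 0 did, against 1.31% of all genes, and 0 did without library 1 of the younger group (share of all genes not computed). The median and these counts include TNP1 and HMGB4, which are described above. The protamine genes and TNP2 were not analysed here.

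Of 11 genes of the outer dense fibres and fibrous sheath tested, 5 passed the fold rule as lower, against 5.25% of all genes, and 0 as higher. Each older library was below each younger one in 9 of them, against 13.9% of all genes. Their median log2 difference was -1.16. Beside ODF1 the 5 were ODF3 (-2.10), SPATA3 (-1.47), SPATA19 (-1.44) and AKAP3 (-1.16), an anchoring protein of the fibrous sheath. ODF3 had low levels, at 2.87 to 3.43 FPKM in the younger libraries and at 0.370, 1.40 and 0.491 FPKM in the older ones. ODF2, the other main structural gene of the fibres, was more abundant than ODF1, at 112, 99.9 and 96.2 FPKM in the younger libraries and 32.8, 83.0 and 78.2 FPKM in the older ones. Its log2 difference was -0.78 (standard error 0.35) and did not pass an unadjusted p of 0.05 (adjusted p = 0.217 from limma); it was -0.35 without 5-year library 1. ODF2L, a relative of ODF2, had a log2 difference of 0.09 (standard error 0.17), and 0.19 without that library. Without 5-year library 1, the median was -0.47 and 1 of the 11 genes, ODF3, passed the fold rule, against 1.31% of all genes. In that run 7 were lower at an unadjusted p under 0.05, against 8.51% of all genes. Without any one of the younger libraries 3 genes passed the fold rule (share of all genes not computed).

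Among 12 genes of glycolysis tested, GAPDHS was the only one past the fold rule as lower, against 5.25% of all genes, and the median log2 difference was -0.48. At an unadjusted p under 0.05, 6 were lower, against 10.9% of all genes: GAPDHS, PGK2, ENO4, HK1, GPI and TPI1. PGK2, the phosphoglycerate kinase of the testis, was the most abundant, at 188, 182 and 196 FPKM in the younger libraries and 82.7, 160.0 and 136.7 FPKM in the older ones, a log2 difference of -0.63 (standard error 0.26, adjusted p = 0.195 from limma), and -0.35 without 5-year library 1. PGK1, the form of this enzyme used by other cells, was at 1.05 FPKM or less in the younger libraries and between 1.34 and 2.58 FPKM in the older ones, with a log2 difference of 1.00 (standard error 0.28, adjusted p = 0.154 from limma), and passed the fold rule as higher. PKM, the last enzyme of glycolysis, was at 22.2 to 23.6 FPKM and at 20.0 to 21.2 FPKM (log2 difference -0.15, standard error 0.13). Without 5-year library 1 the median was -0.27, 4 of the 12 genes were lower at an unadjusted p under 0.05 and 0 passed the fold rule, against 8.51% and 1.31% of all genes.

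**Figure D4:**
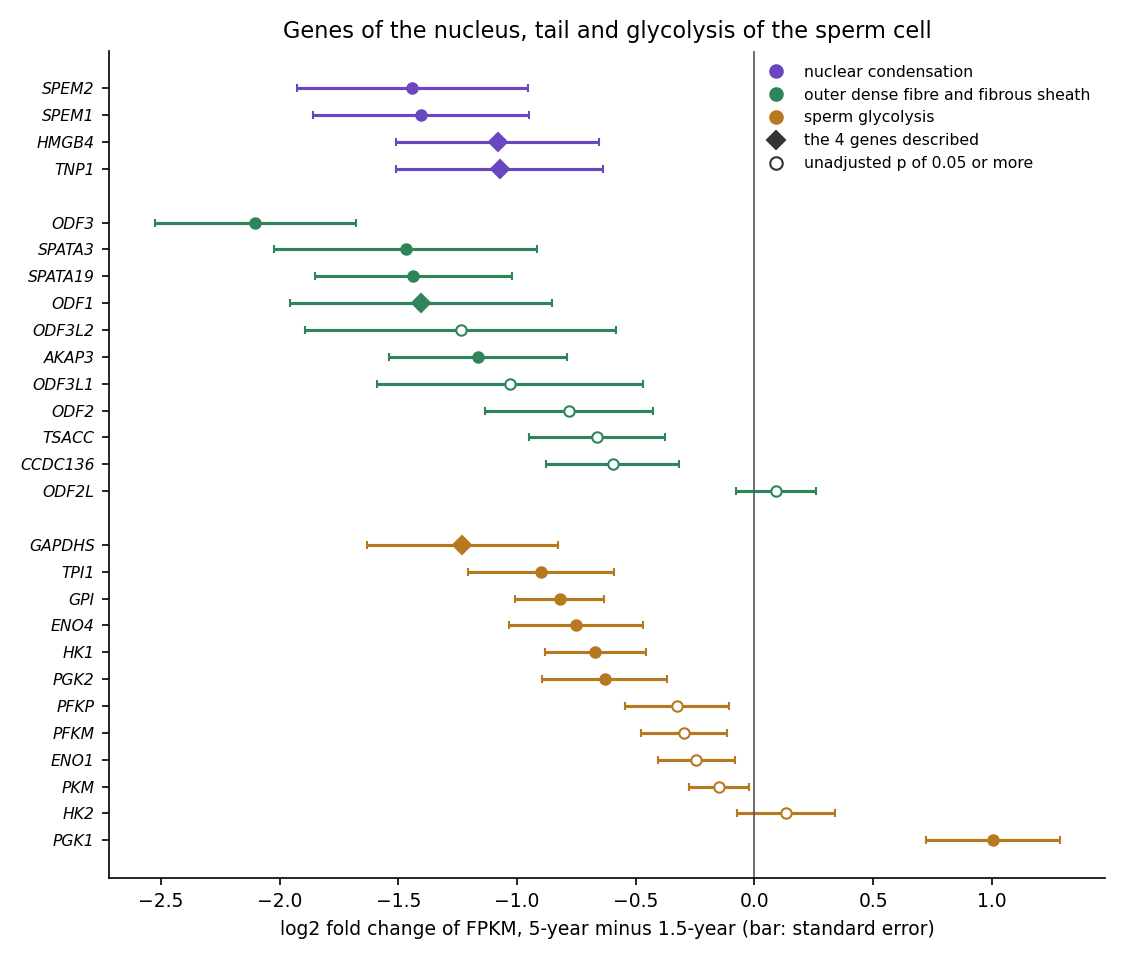
Log2 difference of FPKM (5-year minus 1.5-year libraries, bar: standard error from limma, n = 3 each) of the tested genes of the nuclear condensation, outer dense fibre and fibrous sheath, and glycolysis lists. Filled symbols have an unadjusted p under 0.05 and diamonds are TNP1, HMGB4, ODF1 and GAPDHS; ODF3 is lowest at -2.10, and PGK1 is highest at 1.00.

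Some genes of the round spermatid, the stage before, had another pattern over the libraries. Of 12 genes tested, 6 passed the fold rule as lower, against 5.25% of all genes: TSSK6 (-1.53), TEX29 (-1.52), SPACA4 (-1.61), CCDC54 (-1.29), ACRV1 (-1.24) and SUN5 (-1.23). The median log2 difference was -1.22. It was -0.75 without 5-year library 1, when only TEX29 passed the fold rule, against 1.31% of all genes. It was -1.74 without 5-year library 2, when 10 genes did (share of all genes not computed). Without 5-year library 2, 19.3% of all genes had an adjusted p under 0.05 in limma, against 0.0322% with all libraries. SPACA1, a gene of the acrosome membrane, was at 34.4, 28.8 and 36.1 FPKM in the younger libraries and at 7.07, 34.2 and 11.7 FPKM in the older ones. ACRV1, a protein of the acrosome, was at 39.9, 34.4 and 60.1 FPKM and at 11.6, 41.6 and 12.8 FPKM. In these genes library 2 of the older group lay within the younger range and library 3 was low, whereas TNP1, HMGB4, ODF1 and GAPDHS lay closer together in both. The round spermatid list had a median log2 difference from the younger mean of -0.12 in library 2 and -1.03 in library 3. It was -0.66 and -0.70 for the nuclear condensation list, and -0.39 and -0.69 for the outer dense fibre and fibrous sheath list. The round spermatid list did not share this pattern as a whole. In 6 of its 12 genes each older library was below each younger one, against 13.9% of all genes. TSSK6 was at 74.6 and 70.2 FPKM in libraries 2 and 3. CCDC54 was at 28.7 and 20.5 FPKM in them, against 41.0 to 42.1 FPKM in the younger libraries. The contrast of library 2 with library 3 sets 1 library against 1 and has no test.

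Factors that transcribe or store spermatid mRNAs showed no common direction. Of 19 such genes tested, 2 were lower at an unadjusted p under 0.05, against 10.9% of all genes, and 4 were higher, against 14.2%. The lower ones were FHL5, a partner of CREM (-1.24, and -0.83 without 5-year library 1), and RFX4 (-0.72, and -0.46 without it), and the higher ones PATL2 (0.96), MSI2 (0.91), TAF7L (0.67) and DAZAP1 (0.62). The median was -0.23. Without that library it was -0.02, with 4 genes lower, against 8.51% of all genes, and 4 higher (share of all genes not computed). PABPC1 and YBX3, the most abundant of the list, had log2 differences of -0.24 and -0.23 (-0.10 and -0.02 without that library). CREM, the activator of many postmeiotic genes, was at 88.3, 96.5 and 97.6 FPKM in the younger libraries and at 29.7, 84.8 and 60.4 FPKM in the older ones (log2 difference -0.81, standard error 0.36, adjusted p = 0.209 from limma, and -0.39 without 5-year library 1). YBX2, which binds stored mRNAs in germ cells, was at 108 to 113 FPKM in the younger libraries and at 47.2, 96.0 and 91.0 FPKM in the older ones (log2 difference -0.56, standard error 0.28, and -0.235 without that library). The mean log2 level of TNP1, HMGB4, ODF1 and GAPDHS minus that of this list differed by -1.08 between the ages (exact permutation p = 0.1, adjusted over 11 lists 0.138), and by -0.66 without that library.

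Markers of other testis cells differed between the ages as well, some of them upwards. Of 11 spermatocyte genes tested, 0 passed an unadjusted p of 0.05 in limma, 0 had an adjusted p under 0.05, and the median log2 difference was 0.03. PIWIL1, the most abundant of them, had a log2 difference of -0.32 (-0.18 without 5-year library 1). SYCP1, a protein of the synaptonemal complex, was at 8.11 to 8.51 FPKM in the younger libraries and at 7.99 to 9.19 FPKM in the older ones. Of 9 Sertoli cell genes, 7 were higher at an unadjusted p under 0.05, against 14.2% of all genes, with a median of 0.79 and a summed level of 81.5 to 95.9 FPKM in the younger libraries and 117 to 268 FPKM in the older ones. INHA, the inhibin alpha subunit, was at 56.4 to 65.2 FPKM in the younger libraries and at 211, 81.2 and 100.1 FPKM in the older ones (log2 difference 0.95, and 0.54 without 5-year library 1). Of 11 peritubular and stromal genes, 8 were higher, with a median of 0.93 and summed levels of 32.7 to 37.6 FPKM and 50.2 to 81.3 FPKM. Of these TCF21 (1.76), COL3A1 (1.10) and DCN (1.09) passed the fold rule as higher, against 4.01% of all genes. Without 5-year library 1 they were at 1.86, 0.98 and 1.00. TCF21 was near the floor, at 0.644, 0.158 and 0.743 FPKM in the younger libraries and 1.51, 1.60 and 2.20 FPKM in the older ones (standard error 0.47). Both lists were furthest from the younger mean in library 1 of the older group and nearest in library 2. For 7 spermatogonia genes the median was 0.25 (0.14 without that library), and ID4 (1.10, and 0.80 without it) passed the fold rule as higher. For 3 Leydig cell genes it was 0.12 (0.02 without that library). STAR, which carries cholesterol into mitochondria, was lower at an unadjusted p under 0.05 (-0.92, and -0.82 without that library), against 10.9% of all genes. CYP11A1 (0.12) and NR5A1 (0.38) had differences upwards and did not pass an unadjusted p of 0.05. The 8 macrophage genes, with a median of 0.56, went both ways by the fold rule. CD163 (-1.16) and AIF1 (-1.27) were lower, against 5.25% of all genes. The complement genes C1QA (1.07), C1QB (1.30) and C1QC (1.32) were higher, against 4.01%. Without 5-year library 1, CD163 was at -1.04 and still passed as lower, against 1.31% of all genes, and AIF1 was at -0.87. C1QA was then at 0.78 and C1QB at 0.92, and C1QC alone of the complement genes passed as higher (share of all genes not computed). For 6 endothelial genes the median was 0.20, and CLDN5 (1.03, and 0.67 without that library) passed the fold rule as higher. No erythroid gene of the list reached the minimum level for a test. The part of these cells in the lower levels of the 4 genes was not tested.

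**Figure D5:**
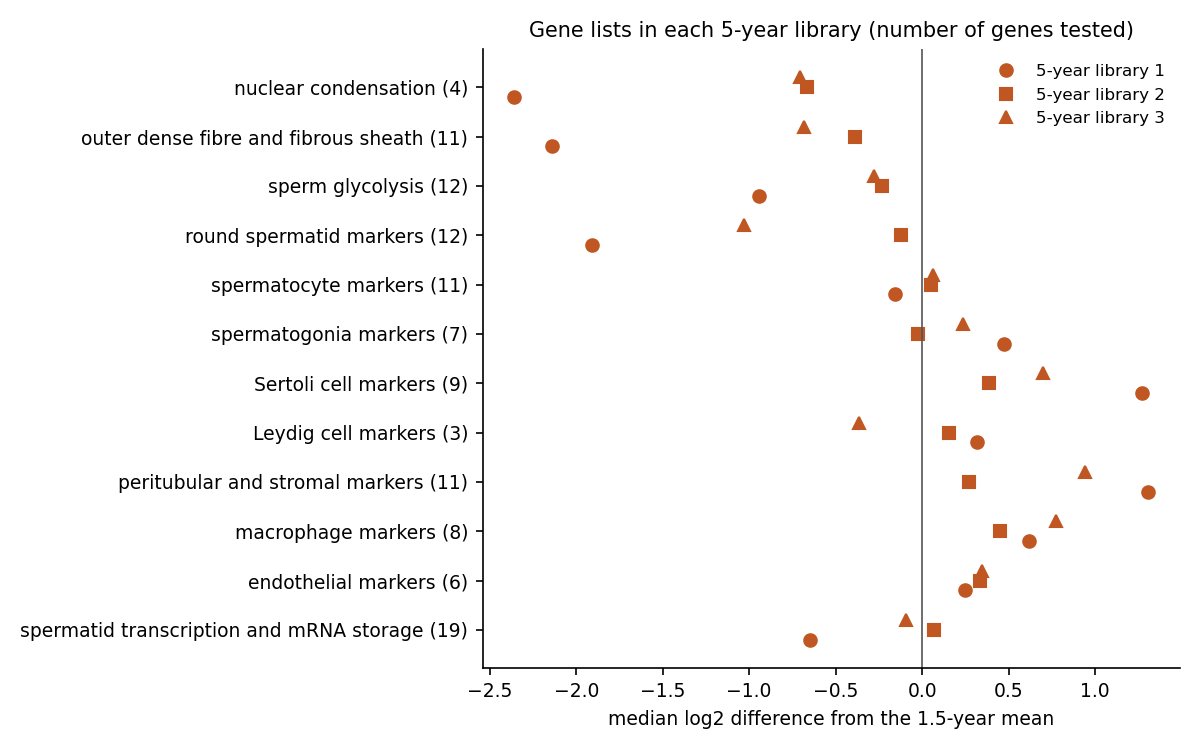
Median log2 difference from the mean of the libraries labelled 1.5 years for each gene list in the 3 libraries labelled 5 years; the number of genes tested stands in parentheses. The nuclear condensation, outer dense fibre and round spermatid lists are lowest in library 1 (-2.36, -2.14 and -1.91), the spermatocyte list lies between -0.16 and 0.06, and Sertoli and stromal lists are above 0.

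The 4 genes were also set against the other lists within each library, by their mean log2 level minus that of the list. For 8 of 11 lists this contrast was lower in each library labelled 5 years than in any labelled 1.5 years; the exceptions by the mean of the list were the tail, round spermatid and Leydig cell lists. Against spermatocyte genes the 4 were higher by 4.58, 4.53 and 4.47 in the libraries labelled 1.5 years and by 2.41, 3.96 and 3.74 in those labelled 5 years, a difference of -1.16 (exact permutation p = 0.1, adjusted 0.138), and -0.68 without 5-year library 1. The difference was -1.90 against Sertoli cell genes and -2.04 against peritubular and stromal genes, again with no overlap (exact permutation p = 0.1 each), and -1.14 and -1.30 without that library. Against the other 10 genes of the outer dense fibres and fibrous sheath it was -0.16 (exact permutation p = 0.2), with values of 3.03 to 3.09 and 2.68 to 3.07, and -0.04 without 5-year library 1. It was -0.56 against the median of that list and -0.31 with a pseudocount of 1, and under both the ages did not overlap (exact permutation p = 0.1 each). Against round spermatid genes it was -0.12 (exact permutation p = 0.7), and 0.02 without 5-year library 1. It was -0.33 against the median of that list (exact permutation p = 0.4). A p of this size does not show that these genes move alike.

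Among HMGB1 to HMGB4, the only symbols of the high mobility group box family looked up for this comparison, HMGB2 is the other one in the table. It was at 14.3, 15.4 and 13.7 FPKM in the libraries labelled 1.5 years and at 14.3, 11.6 and 14.9 FPKM in those labelled 5 years. The groups overlapped and the log2 difference was -0.10 (standard error 0.15, adjusted p = 0.688 from limma).

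The 4 genes correlated with each other at 0.984 to 0.996 over the 6 libraries, which share their scaling and the low library 1. Among 3199 genes with a mean of at least 10 FPKM, the 10 nearest to the mean profile of the 4, by the root mean square difference of centred log2 values, were REEP6, AK1, GSTO2, C7orf31, SPACA9, CAMKV, GSG1, TLCD1, HEMGN and TMIE, at distances of 0.03 to 0.09. Of these SPACA9 carries the terms acrosomal vesicle and motile cilium. TMIE carries the term RNA-directed DNA polymerase activity, and TLCD1 the terms phospholipase A2 activity and cyclin binding. These 2 symbols may not name the genes that were measured. REEP6, a protein of the endoplasmic reticulum, was nearest, at 127, 122 and 119 FPKM in the younger libraries and 24.3, 85.0 and 75.3 FPKM in the older ones. AK1, an adenylate kinase that carries the term outer dense fiber like ODF1, was at 14.5, 13.5 and 14.7 FPKM and at 2.66, 10.1 and 8.17 FPKM. For single genes the nearest was IQCF5 for TNP1, TNP1 itself for HMGB4, TMEM239 for ODF1 and GSG1, a germ cell gene, for GAPDHS. When Pearson's correlation took the place of the distance, 5 of the 10 genes were shared: REEP6, AK1, SPACA9, C7orf31 and GSTO2.

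In the table of differential m6A peaks between the ages, 1438 peaks fell on 1207 genes. TNP1, HMGB4, ODF1 and GAPDHS carried 0 of these peaks, while 9.29% of the genes tested for expression carried one. No gene of the nuclear condensation list and none of the outer dense fibre and fibrous sheath list carried such a peak, and 2 of the glycolysis list did. The table holds peaks past the authors' thresholds and no value per animal, so the m6A level of the 4 transcripts was not measured here.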

How the data were processed

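Input libraries of 6 yak testes were analysed. The FPKM values were deposited by the authors. Per the methods, reads were trimmed with Trimmomatic, cleared of rRNA with SortMeRNA and aligned to LU_Bosgru_v3.0 with HISAT2 (version 2.0.4 per the labels). The program behind FPKM is not given in the sources used here, depth per value is unknown, and reads could not be recovered from low values. The deposited table of differential peaks (MeTDiff, annotated with ChIPseeker) was used for presence on a gene.

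Ages were tested in R 4.3.3 with limma 3.58.1 (lmFit, eBayes with trend, two-sided) on log2(FPKM + 0.1). The 12437 genes with a mean of at least 0.5 FPKM were fitted, and p-values were adjusted over them with Benjamini-Hochberg. Fold changes are on this scale. Ratios, ranks and list contrasts had exact two-sided permutation tests (Python 3.11.15). Of symbols on several identifiers (3871 in the table), the one with the highest mean FPKM was taken. Named were the 4 genes, the nearest genes and part of the list genes. In lists of more than 8 the rule took the most abundant genes and those past a call rule. Not all such genes were named. CREM, ODF2L, PKM, SPACA1, SYCP1 and YBX2 fall outside this rule and were named after their values were seen. The members and lists were chosen with earlier results of these data known. In simulated data of 12437 genes, limma called 98% of the genes with a log2 change of 2 and 22.5% of those with a change of 1. The simulated noise was independent, with spreads set around the median spread of all genes. No library that stands apart, like 5-year library 1, was simulated, so these rates do not carry over to the 4 genes. Alternatives were other pseudocounts, filters, scalings, forms of eBayes, a replicate block, each library left out, and other measures of likeness. Sequences of the 4 genes were not analysed here.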

Additional observations from a re-analysis of the deposited data

How the results depend on the processing

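TNP1, HMGB4, ODF1 and GAPDHS kept their direction under each alternative run. With all libraries kept, the log2 difference lay between -1.14 and -0.80 for TNP1, -1.15 and -0.84 for HMGB4, -1.47 and -1.24 for ODF1, and -1.29 and -0.98 for GAPDHS, the weaker end in each case under quantile normalization. Quantile normalization left 0 of the 4 genes past the fold rule and 1, GAPDHS, lower at an unadjusted p under 0.05. It left 2 genes of the nuclear condensation list, 3 of the outer dense fibre and fibrous sheath list and 0 of the glycolysis list past the fold rule. The shares of all genes under quantile normalization were not computed, and the cause was not tested. The endothelial median was 0.57 when genes were required to have a mean FPKM of at least 5, with fewer genes tested. Pearson's correlation shared 5 of the 10 nearest genes with the distance.

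With 1 library left out at a time, the log2 difference of GAPDHS lay between -1.51 and -0.73, and between 0 and 1 of the 4 genes had an adjusted p under 0.05. Between 0 and 4 genes passed the fold rule and between 1 and 4 were lower at an unadjusted p under 0.05. Genes past the fold rule numbered 0 to 4 in the nuclear condensation list, 1 to 7 in the outer dense fibre and fibrous sheath list (median between -1.55 and -0.47), 0 to 2 in the glycolysis list and 1 to 10 in the round spermatid list. The low ends came without 5-year library 1 and, for some counts, without a library labelled 1.5 years. The shares of all genes were not computed for most of these runs, so most of the counts have no measure beside them. Without 5-year library 2, 19.3% of all genes had an adjusted p under 0.05 in limma, against 0.0322% with all libraries. The log2 difference of the ratio TNP1/HMGB4 lay between -0.065 and 0.073, that of GAPDHS/ODF1 between -0.026 and 0.35, and that of the 4 genes against round spermatid genes between -0.36 and 0.0235.

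Same-numbered libraries of the 2 ages deviated from their group means with correlations of -0.02, -0.09 and 0.01, so the replicate numbers were not taken as pairs. With a replicate block the adjusted p from limma was 0.245 for TNP1, 0.217 for HMGB4, 0.220 for ODF1 and 0.207 for GAPDHS. In that fit 3 of the 4 genes passed the fold rule (share of all genes not computed). The log2 difference of TNP1/GAPDHS was 0.16 in the block as without it (exact sign-flip permutation p = 0.25). With 3 libraries per age, no exact test could reach 0.05, and FPKM carry no depth that would set how precise a single value is.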

Other observations

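The deposited terms name other genes of the same functions as TNP1, HMGB4, ODF1 and GAPDHS. These genes were chosen after their values were seen, and the symbol of an identifier does not always fit its terms, so identifiers are named by both. The term for glyceraldehyde-3-phosphate dehydrogenase activity stands on 4 identifiers, of which 2 were tested. Beside GAPDHS this is ENSBGRG00000001042, deposited under the symbol IFFO1, at 15.1, 18.7 and 16.8 FPKM in the libraries labelled 1.5 years and 47.2, 24.4 and 38.5 FPKM in those labelled 5 years. It was higher in each older library, opposite to GAPDHS, with a log2 difference of 1.07 (standard error 0.25, adjusted p = 0.154 from limma). GAPDH has no gene under its own symbol in the table.

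The term for the exchange of chromosomal proteins in spermatogenesis stands on 4 identifiers. ENSBGRG00000026521, deposited under RMI2, was at 64.3, 60.9 and 63.6 FPKM in the younger libraries and 12.1, 33.3 and 52.6 FPKM in the older ones (log2 difference -1.18, standard error 0.48, adjusted p = 0.189 from limma). Its level in the older libraries was higher in library 3 than in library 2, whereas TNP1 was higher in library 2. ENSBGRG00000014466, deposited under SCGN, was at 1765, 1045 and 866 FPKM and at 557, 989 and 780 FPKM, which overlapped (log2 difference -0.63, standard error 0.36), and was above TNP1 in 5 of the 6 libraries. RNF8, a ubiquitin ligase that acts in histone removal, had a log2 difference of -0.10 (standard error 0.16). The term for bending of DNA stands on 16 identifiers, of which 8 were tested, and they went both ways. TFAM, which packs mitochondrial DNA, was at 67.9, 60.4 and 66.0 FPKM in the younger libraries and 18.4, 47.5 and 33.4 FPKM in the older ones (log2 difference -1.07, standard error 0.33, adjusted p = 0.154 from limma). ENSBGRG00000007092, deposited under KATNAL1, was higher at 5 years by 0.71 on the log2 scale (standard error 0.25, adjusted p = 0.167 from limma). The other tested identifiers beside HMGB4, under FAM183A, HMGB2, TOP2A, TRERF1 and GPR50, had log2 differences between -0.40 and -0.02 and did not pass an unadjusted p of 0.05.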
